A study of Mus musculus with 3 samples.

Results

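The 8 genes described here encode enzymes that join bile acids or other acyl acids to an amino acid, or that prepare those acids for it: Baat, Slc27a5, Glyat, Keg1, Acsm1, Acsm3, Acsm5 and Acnat2. They were taken by symbol from 18193 mouse genes that had at least 1 single-gene probe set, and 11 probe sets read them. The probe set with the highest mean over the 3 arrays stood for each gene. The set was proposed with results of the same arrays in view, so the values below describe the genes, and no test was applied to them.

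Conjugation runs in 2 steps. A ligase first joins the acid to coenzyme A, and an acyltransferase then moves the acyl group from coenzyme A to glycine or taurine, which makes the product more soluble in water. Slc27a5 and Baat carry out these steps for bile acids in hepatocytes, mostly with taurine in mice, whereas medium-chain ligases of the Acsm family and glycine N-acyltransferases such as Glyat handle benzoic acid and related small acids in mitochondria.

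RNA came from whole livers of mice of mixed strain aged 3 months, collected 1 week after 1 intraperitoneal injection of 400 microL of adeno-associated virus of serotype 8. The virus carried either EGFP (MUP-EGFP-AAV8, control virus, n = 2 mice) or the recombinase iCre (MUP-iCre-AAV8, Cre virus, n = 1 mouse), an enzyme that cuts out floxed DNA. The promoter behind the prefix MUP is not spelled out in the sources used here. The series design describes Hnf4a-floxed mice for both viruses, but the sample labels give the control livers as wild type and the Cre liver as HNF4alpha knockout, so genotype and virus cannot be told apart. Hnf4a, which encodes a nuclear receptor of hepatocytes, read 11.91 and 11.96 with control virus and 11.38 with Cre virus on a log2 scale (difference -0.55 ± 0.10 SE, limma adjusted p = 0.0401, up to 0.184 in other settings). When its 4 probe sets were tested among 31526 probe sets, each was lower on the Cre array, but only 1421983_s_at passed, at 7.69 and 7.72 against 6.52 (limma adjusted p = 0.0364). The other 3 did not, including 1427001_s_at, which stands for the gene (limma adjusted p = 0.0644), 1427000_at (0.210) and 1450447_at (0.193). Whether any of them lies in the floxed part was not analysed.

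Levels are RMA values, that is, background-corrected log2 signal with equalised array distributions, so 1 unit is a 2-fold difference. Differences are Cre minus the control mean, with limma's moderated standard error (SE), which assumes that the lone Cre liver varies like the controls. The 8 genes all passed the filter on dim genes, a mean over the 3 arrays of at least 3.77, which left 12735 genes. Median signal was alike on the arrays (4.15 to 4.18), and their number limits the precision. Y-linked Eif2s3y was at 7.70 and 7.75 with control virus and 8.07 with Cre virus, while Xist was below 3.77 on each array.

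RefSeq promoter windows of GRCm38.p6 (250 bases before to 50 after a start) were found for 6 of the 8 genes, 7 windows in all. None was found for Baat or Slc27a5, so the promoters of the bile acid pair were not searched. Those of Glyat and Keg1 are shown because these genes lie near each other and, with the probe sets that stand for them, had the lowest differences of the set, and those of Acnat2 because it went the other way. Capitals mark matches to the motifs searched.
Glyat, chr19:12633058-12633357, plus strand: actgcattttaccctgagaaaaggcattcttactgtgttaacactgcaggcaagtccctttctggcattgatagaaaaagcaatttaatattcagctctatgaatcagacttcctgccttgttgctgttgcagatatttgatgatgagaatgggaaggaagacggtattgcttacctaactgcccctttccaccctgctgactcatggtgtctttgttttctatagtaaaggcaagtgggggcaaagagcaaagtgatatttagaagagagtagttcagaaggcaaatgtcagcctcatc
Keg1, chr19:12695540-12695839, plus strand: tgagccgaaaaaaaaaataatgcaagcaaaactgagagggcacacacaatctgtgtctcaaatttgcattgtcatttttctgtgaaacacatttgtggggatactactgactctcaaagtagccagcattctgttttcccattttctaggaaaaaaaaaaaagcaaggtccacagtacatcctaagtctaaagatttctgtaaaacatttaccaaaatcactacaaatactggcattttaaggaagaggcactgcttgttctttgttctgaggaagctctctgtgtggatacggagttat
Acnat2, chr4:49408102-49408401, minus strand: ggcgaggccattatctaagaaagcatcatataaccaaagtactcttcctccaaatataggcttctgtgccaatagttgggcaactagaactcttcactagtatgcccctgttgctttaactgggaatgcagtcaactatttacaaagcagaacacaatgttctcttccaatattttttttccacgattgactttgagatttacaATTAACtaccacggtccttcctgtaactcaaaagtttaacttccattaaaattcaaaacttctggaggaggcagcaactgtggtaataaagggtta
Acnat2, chr4:49405709-49406008, minus strand: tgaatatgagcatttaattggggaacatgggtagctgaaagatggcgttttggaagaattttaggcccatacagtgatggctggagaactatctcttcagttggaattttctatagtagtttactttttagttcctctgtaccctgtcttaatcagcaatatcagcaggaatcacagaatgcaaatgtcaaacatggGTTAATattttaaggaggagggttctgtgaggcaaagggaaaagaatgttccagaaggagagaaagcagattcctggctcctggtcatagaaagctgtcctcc

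Both strands of each window were searched for the full direct repeat of AGGTCA with a 1-base spacer and for its part CAAAGGTCA, both of the kind nuclear receptors read, for CAAAGTCCA of the HNF4 type, for the full HNF1 palindrome and its half-site GTTAAT, and for TATAAA. A full direct repeat with A as its spacer holds CAAAGGTCA, and the palindrome holds GTTAAT. Of the 7 windows, only the 2 of Acnat2 had a match, GTTAAT as printed in one and its reverse complement ATTAAC in the other, 53 and 46 bases before the start. GTTAAT occurred in 7.1% of the 32851 windows in the table. CAAAGGTCA occurred in 0.478% of all windows, CAAAGTCCA in 0.475%, TATAAA in 13.6%, the full direct repeat in 0.0396% and the full HNF1 palindrome in 0.00913%. No match means only that these letters were not in these windows.

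Both bile acid conjugation genes were far lower in the Cre liver than in either control. Slc27a5, the ligase that joins bile acids to coenzyme A, was at 12.67 and 12.79 in the control livers and at 7.66 in the Cre liver. The controls lay within 0.12 of each other, and the Cre value was 33.7-fold lower than their mean (-5.07 ± 0.11 SE). Baat, the acyltransferase of the same pathway, was read by 2 probe sets. With 1419002_s_at it was at 9.34 and 9.50 with control virus and 4.31 with Cre virus, 34.6-fold lower (-5.11 ± 0.15 SE). With 1419001_at it was at 7.99 and 8.23 against 4.52, or 12.1-fold lower (-3.59). Both probe sets of Baat put the Cre liver below both controls, and they differed in the size of the difference by more than 1 log2 unit. With the brighter Baat probe set, Slc27a5 and Baat, consecutive enzymes of 1 pathway, were 0.04 apart in their difference from control, less than the SE of either. That closeness does not hold with 1419001_at (-3.59). The Baat reading of 4.31 was also near the array medians, so its difference may be a lower bound, and no matched size can be read.

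Glyat and Keg1, the genes of the glycine N-acyltransferase family, were also far lower in the Cre liver than in either control. Glyat, which joins benzoyl and related acyl groups to glycine, was read by 3 probe sets. With 1451515_s_at it was at 11.54 and 11.47 with control virus and 5.69 with Cre virus, 56.2-fold lower (-5.81 ± 0.12 SE). Its probe set 1424867_a_at read 10.01 and 10.25 against 3.99 (-6.14, 70.5-fold lower). The third, 1424868_at, read 5.74 and 5.71 against 2.87 (-2.85, 7.22-fold lower), with a Cre value below the filter level. The Cre liver was thus below both controls with each Glyat probe set, and the difference ranged from -2.85 to -6.14 with the probe set used. Keg1, a gene of the Glyat family, was at 9.99 and 10.73 with control virus and 4.55 with Cre virus, 56.0-fold lower (-5.81 ± 0.34 SE). Its controls were 0.74 apart, a wider gap than in 98.2% of fitted genes (0.644% had controls at least 1 unit apart), so the difference was -5.44 from control 1 and -6.18 from control 2. Among all fitted genes, Glyat and Keg1 had the 8th and 9th lowest differences, and Baat and Slc27a5 the 27th and 29th with the probe sets that stand for them; these ranks describe the contrast on which the genes were chosen. The Cre readings of Keg1, of both Baat probe sets and of 1424867_a_at and 1424868_at for Glyat were 4.55 or lower, near or below the array medians of 4.15 to 4.18. No detection call was used here, so whether they lie above background was not tested, and their folds and ranks are not exact and may be lower bounds. Acsm1 had the 297th and Acsm5 the 737th lowest difference, whereas Acnat2 stood 151st from the top.

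**Figure D1:**
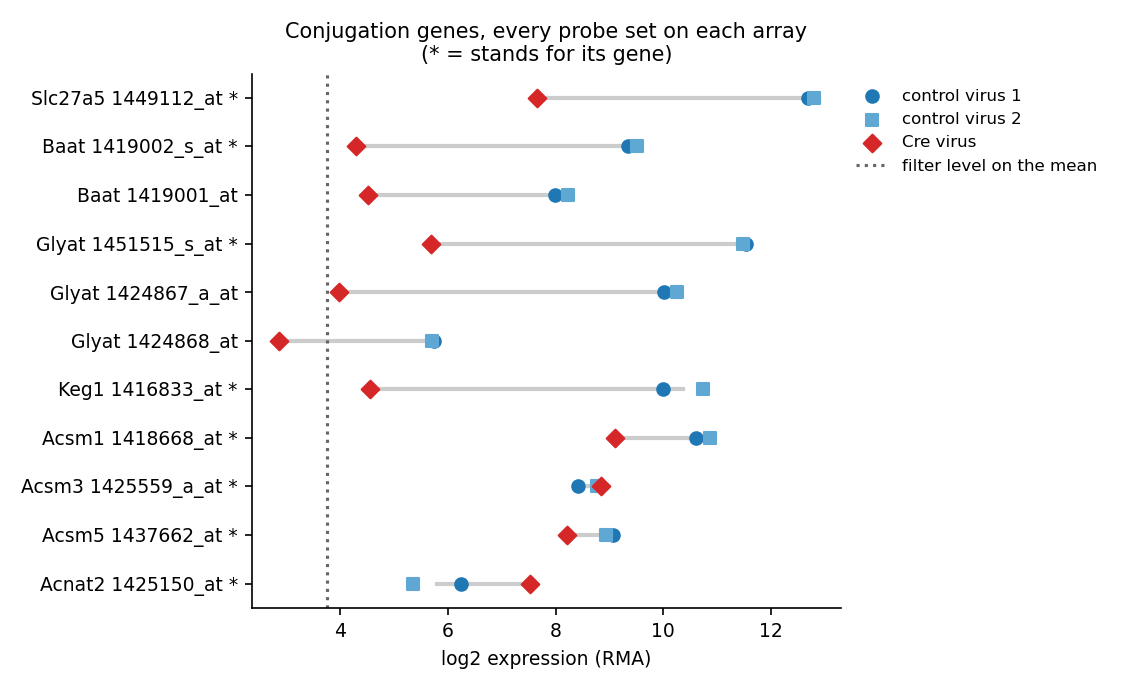
Log2 expression (horizontal) of each of the 11 probe sets (rows, named with their gene) on the 2 control arrays (circles and squares) and the Cre array (diamonds); grey lines join the Cre value to the control mean, the dotted line is the filter level of 3.77 on a gene's mean, and stars mark the probe set that stands for a gene. All probe sets of Slc27a5, Baat, Glyat and Keg1 have the Cre value more than 2 units left of both controls, Acsm1 and Acsm5 less so, Acsm3 lies beside its controls and Acnat2 lies to their right.

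The medium-chain acyl-CoA ligases differed from control far less than the acyltransferases Glyat and Keg1, and not all in 1 direction. Acsm1, which activates medium-chain and small aromatic acids such as benzoate, was at 10.61 and 10.87 with control virus and 9.11 with Cre virus, 3.10-fold lower (-1.63 ± 0.16 SE). Acsm5, a further member of that family, was at 9.07 and 8.95 against 8.22, 1.73-fold lower (-0.79 ± 0.13 SE). The Cre liver lay below both controls for both genes, and the difference was -1.50 from control 1 and -1.77 from control 2 for Acsm1, and -0.86 and -0.73 for Acsm5. Both differences exceeded the distance between the controls, 0.26 for Acsm1 and 0.13 for Acsm5. Acsm3, of the same family, was at 8.42 and 8.77 with control virus and 8.84 with Cre virus. That value is only 0.08 above control 2, less than the 0.35 between the controls, and the difference of 0.25 ± 0.19 SE does not stand apart from the control spread.

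Acnat2, a gene of the Baat family that encodes an acyl-coenzyme A amino acid N-acyltransferase, was the only one of the 8 at least 2-fold higher in the Cre liver than in both controls. It was at 6.25 and 5.35 with control virus and 7.52 with Cre virus, 3.30-fold higher than the control mean (1.72 ± 0.41 SE). The controls were 0.89 apart, more than in 99.0% of fitted genes, and the Cre liver was 1.27 above control 1 and 2.17 above control 2. Its SE was the largest among the 8 genes, and the Cre value lay outside both controls.

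**Figure D2:**
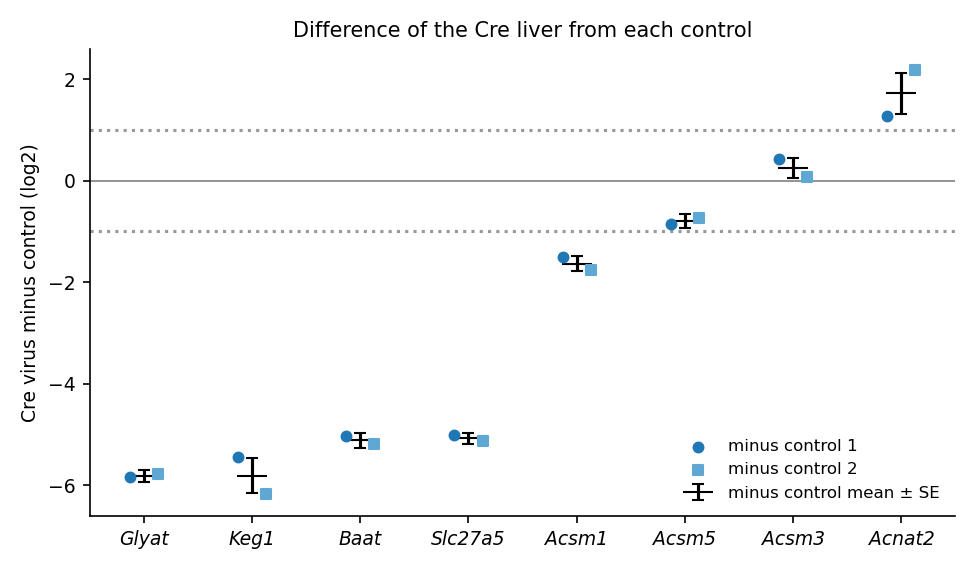
Cre value minus control 1 (circles), minus control 2 (squares) and minus the control mean (bars with ± limma's SE), in log2 units, for the 8 conjugation genes in order of difference; dotted lines mark 1 log2 unit. Glyat, Keg1, Baat and Slc27a5 lie between -5.81 and -5.07 from the control mean, Acsm1 at -1.63, Acsm5 at -0.79, Acsm3 at 0.25 and Acnat2 at 1.72.

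With the probe sets that stand for them, the genes ran Glyat, Keg1, Baat, Slc27a5, Acsm1, Acsm5, Acsm3 and Acnat2 in order of difference. Neighbours in that order were Glyat and Keg1, which did not differ beyond the spread, and Baat and Slc27a5, which did not either. Keg1 and Baat were 0.70 apart, less than the 0.74 between the Keg1 controls. The widest step in that order was 3.44, from Slc27a5 to Acsm1, and no gene of the set lay between. From there the steps were 0.84 to Acsm5, 1.04 to Acsm3 and 1.47 to Acnat2, each wider than the control gap of the genes on either side. With the same probe sets, the Glyat family, the bile acid enzymes and the Acsm genes followed one another in the order. With 1424868_at for Glyat (-2.85) or 1419001_at for Baat (-3.59), that gene would instead lie between Slc27a5 and Acsm1. By any amount, 6 of the 8 were below both controls and 2 above both, where 33.6% and 49.7% of all fitted genes were. By size alone, 5 of the 8 were at least 1 log2 unit below both controls and 1 at least 1 unit above both. Over all fitted genes, 3.72% were that far below and 3.67% that far above both controls, and since the genes were chosen on this contrast nothing is read from that comparison. The median difference of the set was -3.35, against 0.09 over all fitted genes.

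**Figure D3:**
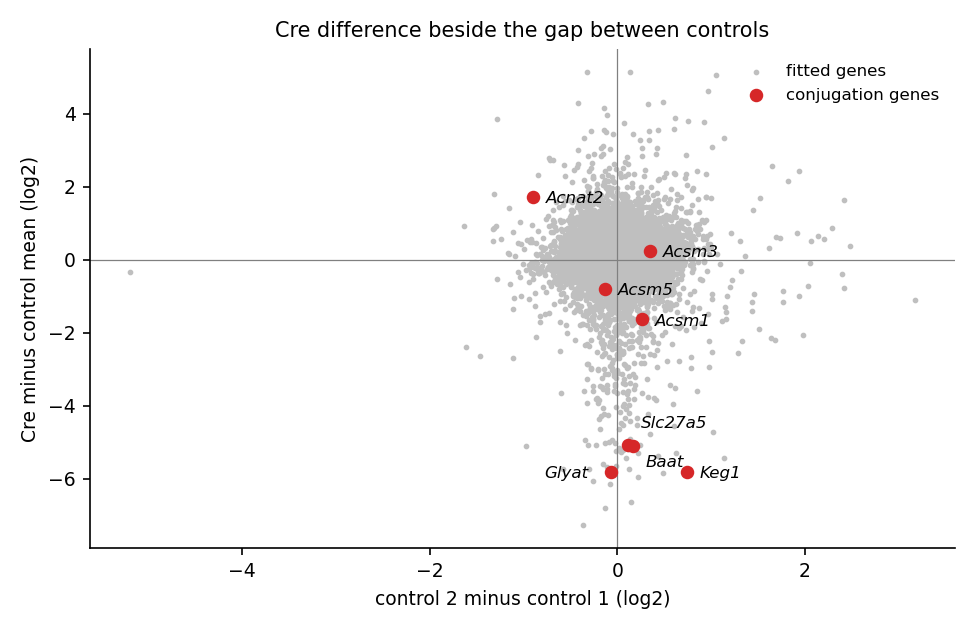
For each of 12735 fitted genes (grey), the gap between the controls (control 2 minus control 1, horizontal, log2) and the Cre difference from the control mean (vertical, log2), with the 8 conjugation genes in red. Glyat, Baat and Slc27a5 have narrow control gaps, from -0.06 to 0.17, whereas Keg1 (0.74) and Acnat2 (-0.89) lie far to either side.

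Genes of the set sit in 4 stretches of the genome. In the order of protein-coding genes of the RefSeq table, Acnat2 and Baat are parted only by Acnat1, and Glyat and Keg1 by the olfactory receptor genes Olfr1442 and Olfr1443. Acsm5 and Acsm1 are parted by Acsm2, and Acsm3 follows Acsm1 after a few genes. Slc27a5 stands apart from the others. Acnat2 (1.72) and Baat (-5.11), near neighbours of 1 gene family, thus lay on opposite sides of control, whereas Glyat and Keg1, also close neighbours, both lay below it, by an amount that varied with the Glyat probe set and the Keg1 control. Of 31 other genes within 3 places of one of the set, 14 were fitted. By limma's test over all fitted genes, 2 of these rose, Dtx4 near Glyat (1.52 ± 0.20 SE, adjusted p = 0.0217, up to 0.0408 in other settings) and Eri2 beside Acsm3 (1.01 ± 0.18 SE, adjusted p = 0.0423, up to 0.0822), and the other 12 did not pass. Over all fitted genes 6.71% rose and 5.21% fell at an adjusted p under 0.05. The median of these neighbours was 0.15.

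Of 10 further genes of the same families, 4 were fitted and 1 fell. Slc27a2, a very-long-chain acyl-CoA synthetase that can also activate bile acids, was at 13.02 and 13.10 against 12.30 (-0.76 ± 0.09 SE, limma adjusted p = 0.0186, with 0.0593 in 1 other setting), beside the -5.07 of Slc27a5. Acsm2 did not pass (-0.96 ± 0.24 SE, limma adjusted p = 0.0823) with probe set 1427223_a_at, and 1456190_a_at read -2.24 for it. Slc27a1 did not pass with 1422811_at (0.32), whereas its dimmer probe set 1435658_at read 3.96 and 3.97 against 6.53 (2.57). With the mean of each gene's probe sets, 2 genes of this list fell and 1 rose.

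Of 13 fitted genes for the supply and use of glycine and taurine, the amino acids that Glyat and Baat attach, 4 fell and 9 did not pass, with a median of -0.14. Shmt2, the mitochondrial enzyme that forms glycine from serine, was at 9.73 and 9.79 against 6.40 (-3.36 ± 0.13 SE, limma adjusted p = 0.00142; -2.16 as the mean of its 4 probe sets). Shmt1, its cytosolic counterpart (-1.11), and Gnmt, which consumes glycine (-1.65), fell too, as did Cdo1 at the head of taurine synthesis (-0.52, adjusted p = 0.0369, up to 0.108 in other settings). Csad, which makes the taurine precursor hypotaurine, was at 6.55 in control 1, 8.47 in control 2 and 8.25 in the Cre liver, so no difference can be read for it.

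Of 13 genes of coenzyme A synthesis and turnover, Vnn1 (1.74, adjusted p = 0.0282, up to 0.0515 in other settings) and Nudt19, a coenzyme A hydrolase (2.83-fold higher, limma adjusted p = 0.00892), rose and 11 did not pass, with a list median of 0.00092. In bile acid synthesis 5 of 14 fitted genes fell (Cyp8b1, Cyp2c70, Hsd3b7, Cyp7b1 and, with an adjusted p up to 0.124 in other settings, Scp2) and Cyp39a1 rose (median -0.05). Of the 4 peroxisomal side-chain genes in that list, which act before Baat, the thiolase gene Scp2 is the one that fell (-0.51, limma adjusted p = 0.034), whereas Amacr (0.21), Acox2 (-0.56) and Hsd17b4 (-0.04) did not pass. Among 11 fitted bile acid carriers Slco1a1 and Slc10a1 fell and Abcc3, Slco1a4 and Abcc2 (adjusted p up to 0.0844 in other settings) rose (median 0.10). Of 17 other conjugating enzymes 10 fell and 2 rose, Ugt2b34 and Ugt2b35 (median -1.10). Among those that fell, Nnmt and Ugt3a1 had a limma adjusted p up to 0.0771 and 0.0564 in other settings. The sulfotransferase genes Sult1b1 (-5.69, to a Cre value of 2.61, below the filter level) and Sult1a1 (-4.63) and the sugar transferase gene Ugt3a2 (-4.52) had the lowest differences of that list. Among 11 other short and medium chain acyl-CoA enzymes Acss2 fell (-1.80, limma adjusted p up to 0.0615 in other settings). Crot rose (0.80, but 0.11 as the mean of its probe sets, limma adjusted p = 0.605), and the list median was 0.39. Crat did not pass with 1441919_x_at (0.60), whereas its probe set 1417008_at read 5.75 and 6.31 against 8.45 (2.42). In peroxisomal protein import 1 of 8 rose (Pex26, adjusted p = 0.0493, up to 0.0765 in other settings; median -0.15).

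**Figure D4:**
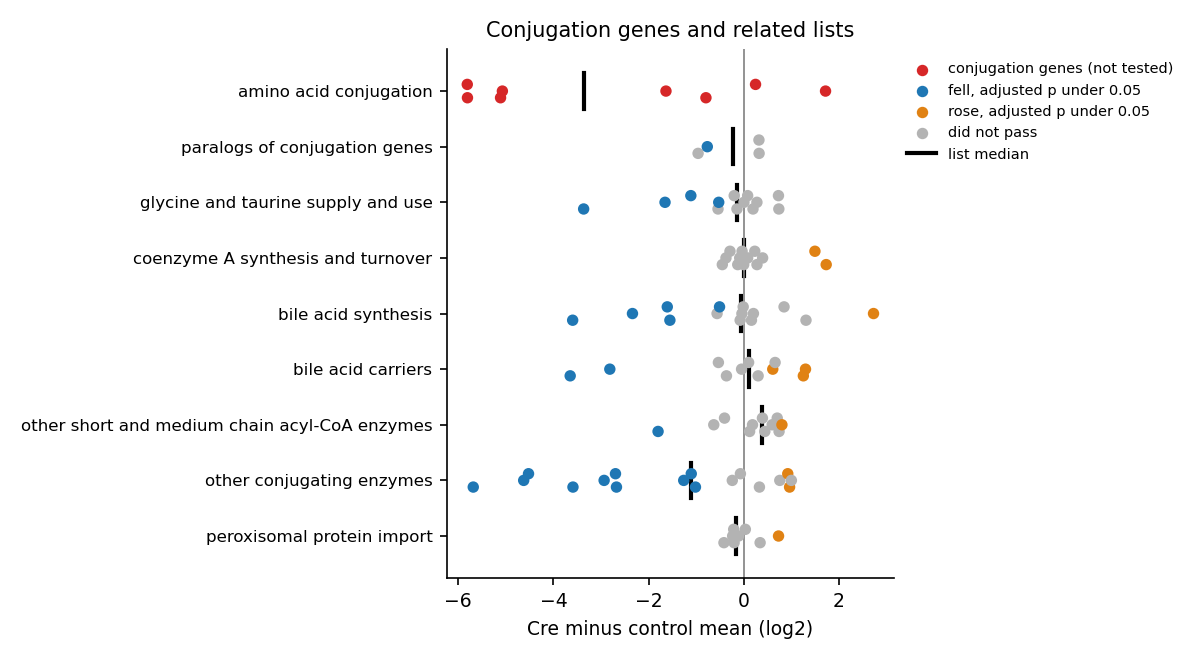
Cre minus control mean (log2, horizontal) of each fitted gene in the conjugation set (red, not tested) and in 8 related lists, coloured by limma's call (blue fell, orange rose, grey did not pass), with black bars at each list's median. The conjugation genes have a median of -3.35, other conjugating enzymes -1.10, and the other related lists lie between -0.22 and 0.39.

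Over the 8 related lists, 91 of 106 genes were fitted, of which 23 fell (25.3%) and 10 rose, against 5.21% and 6.71% of all fitted genes. These lists were written with earlier results of these arrays known, so the shares are not independent evidence of a direction. The median of these related genes was -0.04. The 5 genes outside the set whose 3 values, each centred on its control mean, lay nearest to the set's median profile were Ly6g2, Shmt2, Slc3a1, Cpn2 and Olfm3, at -3.42 to -3.26, by Euclidean distance over the 3 arrays (0.03 to 0.10 log2 units). That median falls in the stretch between Slc27a5 and Acsm1, where no gene of the set lies with the probe set that stands for it. Other probe sets do lie there, 1419001_at of Baat (-3.59) and 1424868_at of Glyat (-2.85). Olfm3 was at 2.44 in the Cre liver, below the filter level.

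In whole liver, fewer cells of a type and less RNA per cell cannot be told apart. Of 10 fitted hepatocyte markers, 3 apolipoprotein genes fell (Apoc3, Apoa2 and, with an adjusted p up to 0.061 in other settings, Apoh), and the albumin gene Alb was at 14.75 and 14.72 with control virus and 14.62 with Cre virus (-0.11 ± 0.07 SE, limma adjusted p = 0.363). The list's median difference was -0.02. Its mean level was 14.02 and 14.03 against 13.59, and 5 of the 10 were above their control mean without passing (Hpd, Apoa1, Serpinc1, Fgb and Ahsg, 0.07 to 0.28). Of 12 macrophage markers 1 rose (Marco, 1.88 ± 0.16 SE, limma adjusted p = 0.0097). All of them lay above their control mean, with a median of 0.70 against 0.09 over all fitted genes. Their mean level was 6.20, 6.71 and 7.16 in control 1, control 2 and the Cre liver. Of 4 fitted cholangiocyte markers Sox9 rose, from 3.87 and 4.82 to 6.69 (2.35 ± 0.43 SE, limma adjusted p = 0.0452, up to 0.0799 in other settings). The others did not pass and differed in direction: Krt23 (-0.63) and Tspan8 (-0.53) were below both controls and Epcam (0.28) above both. The median of that list was -0.13. Alas2, the only erythroid marker fitted, fell from 8.61 and 8.92 to 5.49 (-3.27 ± 0.19 SE, limma adjusted p = 0.00339), while Slc4a1 and Hba-a1 were below the filter level. No endothelial, stellate cell, lymphocyte, neutrophil or kidney tubule marker that was fitted passed limma's test. The median difference was 0.26 for endothelial markers and 0.28 for stellate cell and fibroblast markers. It was 0.20 for lymphocyte and neutrophil markers and -0.13 for kidney tubule markers. The part of these markers in the values of the conjugation genes was not tested.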

How the data were processed

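Total liver RNA was labelled with biotin and hybridised to 1-colour 3-prime arrays, per the labels' protocols. From these the authors made 1 log2 value per probe set using RMA in Partek 6.5, according to the submitters' processing notes. The log base, not stated there, was read from the values. RMA makes the array distributions alike and so cannot show a shift common to all genes.

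Of 45101 probe sets, 34945 were annotated to a single gene, 932 to more and 9160 to no gene; only the first kind was named, with symbols updated by Entrez ID through a GRCm38.p6 gene table for 34741. The brightest probe set by mean stood for a gene, and genes at or above the 30th percentile of the mean (3.77) were fitted. Because this mean covers the Cre array, a high Cre value alone could bring a gene in. The fit of Cre against control virus used limma 3.58.1 in R 4.3.3 (eBayes with trend, 1 residual and 3.18 prior degrees of freedom, two-sided, Benjamini-Hochberg over 12735 genes, threshold 0.05). The fit was tested on simulated data under 3 ways to draw gene variances, 2 of them tried before the one drawn from limma's own prior. With that prior the share of false calls was above the threshold of 0.05; with limma's moderated variances it was several times the threshold; with shuffled control spreads it was below it, but many changed genes were missed. Adjusted p-values here may therefore be too small, and no choice among the 3 was tested. In the simulations all planted changes were downward, in genes well above the filter level, and the simulated Cre array varied like the controls. Recovery of rises and of changes in dim genes was thus not covered. The lone Cre array has no replicate. The labels call the controls biological replicates. Each p-value sets the Cre difference against a variance taken from the gap between those 2 mice and moderated toward a trend over all fitted genes. It holds no information on the spread among Cre livers.

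The genes of the set and all lists were chosen with earlier results of these data known. Named were the set, Hnf4a, the members of each list with the largest differences or needed to describe it, the 5 nearest profiles and genome neighbours (protein-coding genes only, 3 on each side). Alternatives concerned probe sets, scaling, the filter, moderation and each control left out. Protein sequences were not used here. Figures were drawn with matplotlib 3.10.9.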

Additional observations from a re-analysis of the deposited data

How the results depend on the processing

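The differences of the 8 conjugation genes kept their direction in the 6 alternatives to probe set choice, scaling and controls (5 for Acsm3, which has only a probe set with the suffix _a_at). Differences ranged from -5.19 to -3.59 for Baat, from -5.88 to -2.85 for Glyat, from -6.18 to -5.44 for Keg1 and from 1.27 to 2.17 for Acnat2. In each alternative 5 genes were at least 1 log2 unit below both controls and 1 was that far above. Where 1 control was left out, the rule was applied to the single control left. The set's median was -2.99 with the mean of each gene's probe sets and -2.85 when probe sets ending in _s_at, _x_at or _a_at were left out, which leaves 7 genes; without control 1 or control 2 it was -3.45 and -3.26. Over all genes 855 rose, against 471 without those suffixes, where fewer genes were fitted (11614), 446 with no filter and 1137 with quantile normalization. Related genes that rose numbered 10, against 6 with no filter and 14 with quantile normalization. Over all genes 663 fell, against 452 without those suffixes and 936 with quantile normalization. Of 33 called related genes, 23 passed in every one of the 8 other settings that could fit them. With 1 control left out no residual degree of freedom remains, so limma's calls were not run there. No paired analysis was possible because the Cre group has 1 array and its label carries no replicate number.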
